A study of Drosophila melanogaster with 35 samples.

Results

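A set of 10 genes at which the heterochromatin protein HP3 was much lower after HP1 knock-down was followed across every array of a DamID study in Drosophila melanogaster Kc167 cells, an embryonic cell line. The genes are CG2519, Marf1, CG43367, eya, Elys, Ice1, side-III, Rcd7, tefu and CG9795. They were chosen by the largest falls of HP3 between HP1 knock-down and the control knock-down of white, so their HP3 values under those knock-downs are a description and carry no test. These 10 genes of 7736 named on the array are covered by 12 probes of 9993, with a pair of probes each for eya and Marf1, and all 12 passed the filter on missing values.

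DamID maps where a chromatin protein sits by fusing it to a bacterial adenine methyltransferase, Dam. DNA near the protein's binding sites becomes methylated, is isolated and is hybridised against methylated DNA from cells with Dam alone. Each value here is a log ratio of fusion over Dam alone, read as log2 because no source states the log base, with each array centred on its median. A value of 0 is therefore the level of the typical probe, and the ratio gives relative occupancy over a gene fragment and no transcript level.

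All 35 arrays hold Kc167 genomic DNA, with the fusion and the Dam-only plasmid each introduced by transfection of the pNDamMyc vector. Cells without knock-down carried fusions to HP1 (4 arrays), Su(var)3-9 (3 arrays), HP3 (4 arrays), HP4 (4 arrays), HP5 (4 arrays), HP6 (3 arrays) or Jra, a transcription factor that served as the control outside heterochromatin (3 arrays). HP3 was also mapped in cells depleted of HP1 (3 arrays) or of white, an eye pigment transporter gene used as the control target (3 arrays). HP6 was mapped under the same knock-downs with 2 arrays each. The labels do not say whether the Dam-only cells of the knock-down arrays carried the knock-down too, nor whether replicates came from separate cultures, so a p-value here measures the spread between arrays. The loss of HP1 itself cannot be read from genomic DNA.

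HP1 binds histone H3 methylated at lysine 9 through its chromodomain and gathers other proteins through its chromoshadow domain. Su(var)3-9 is the methyltransferase that writes this mark, and the pair forms the core of heterochromatin around the centromeres. HP3 is the product of Lhr, a gene known from hybrid lethality between fly species, and HP6 is a small chromoshadow protein also known as Umbrea. Genes within or beside pericentric heterochromatin can be transcribed while they carry these proteins, and some genes far out on the arms carry them as well.

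A pair of arrays stood apart from their labels. A fusion plasmid leaves a strong signal at the probe of its own gene, which could be read for HP1, HP3, HP4, HP5 and Jra. The genes of HP6 and Su(var)3-9 were not measured, so their own signal could not be checked on the arrays with those labels. The probe of Lhr read 3.52 to 6.19 on 9 of the 10 arrays labelled HP3 but 0.09 on the untreated HP3 array labelled replicate 2. That array correlated with every other array at −0.0728 to 0.0875 over all probes, against 0.513 to 0.75 among the other untreated HP3 arrays. The HP4 gene's probe read 4.81 on the array labelled HP6 replicate 3, inside the range of 3.71 to 5.01 on the HP4 arrays and above the next highest value elsewhere, 1.25. Because all groups share 1 estimate of spread, leaving these doubted arrays out can change calls in other groups too. The main counts and levels that move without them are given both ways, and a value given once is from all arrays and may move too.

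The choice left a narrow band of HP3 differences. Among genes that passed limma's test with no overlap between arrays, the differences at the leading member probes ran from −1.85 at CG2519 to −1.54 at CG9795, as HP1 knock-down minus white knock-down. Dhc64C, at −1.73, and gek, at −1.61, lie within that band and are not among the 10 genes. The next genes outside it were Dbp80 at −1.53, cyst at −1.50 and CG13531 at −1.49. Over all genes the median difference was −0.03, and over the 10 genes it was −1.63. Of 9934 probes fitted, 44 were lower for HP3 by limma at an adjusted p under 0.05, which is 0.443%, and 738 were higher, which is 7.43%. Without the doubted arrays those lower were 99 and those higher 867. All 3 HP1 knock-down arrays lay below all 3 control arrays at 11 of the 12 member probes and at 18.5% of all probes, a count the choice itself sets.

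Marf1 and Ice1 act on RNA. Marf1 encodes an RNA-binding protein that lowers the stability of target transcripts in the female germ line. At its probe RE40762, HP3 read 2.61, 2.05 and 2.06 after white knock-down and 0.59, 0.29 and 0.60 after HP1 knock-down, a difference of −1.75. The other Marf1 probe, RE34808_ReAmp, read 2.39, 2.04 and 1.96 against 0.77, 0.05 and 0.83, a difference of −1.58. The groups were apart at both probes, and the values that remained were above 0 on every HP1 knock-down array. Ice1 encodes a subunit of the little elongation complex, which drives transcription of small nuclear RNAs. HP3 at Ice1 read 2.26, 1.66 and 1.57 after white knock-down and 0.00, 0.21 and 0.33 after HP1 knock-down, a difference of −1.65, so that all 3 depleted arrays came close to the typical probe.

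Elys, tefu and Rcd7 serve nuclear structure, genome upkeep and cell division. Elys encodes a nucleoporin that contacts chromatin and starts nuclear pore assembly after mitosis. HP3 at Elys read 2.42, 1.75 and 1.11 after white knock-down and 0.25, −0.12 and 0.12 after HP1 knock-down, a difference of −1.68. The control arrays were spread widely here, but the lowest of them still lay above the highest depleted array. tefu encodes the ATM kinase, which responds to DNA breaks and protects telomeres from fusion. HP3 at tefu read 2.10, 1.58 and 1.75 against 0.04, 0.14 and 0.47, a difference of −1.59. Rcd7 takes its name from a screen for genes whose loss reduces centrosomal Centrosomin. HP3 at Rcd7 read 1.46, 0.99 and 1.24 against −0.38, −0.75 and 0.02, a difference of −1.60. Rcd7 had the lowest mean after HP1 knock-down among the member probes, −0.37, and also started from a low control mean, 1.23.

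CG2519, CG9795 and CG43367 have only computed gene names. CG2519 had the highest mean HP3 of the member probes under the control knock-down, 2.68, with 2.74, 2.64 and 2.66. After HP1 knock-down it read 1.19, 0.35 and 0.95, the widest drop at −1.85, yet its mean of 0.83 was still the highest left at any member probe. HP3 at CG9795 read 2.11, 1.84 and 1.65 against 0.31, 0.15 and 0.52, a difference of −1.54. At CG43367 the values were 2.07, 1.45 and 1.57 against 0.01, −0.43 and 0.31, a difference of −1.73. None of these genes showed an overlap between the control and the depleted arrays.

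The remaining genes, eya and side-III, differed from the other 8. The gene eya encodes a transcription cofactor and phosphatase needed for eye development. At probe LD16029, HP3 at eya read 2.41, 1.81 and 0.88 after white knock-down and −0.34, −0.09 and 0.40 after HP1 knock-down, a difference of −1.71. The other eya probe, GH05272, read 0.94, 0.05 and 0.15 against 0.88, 0.21 and 0.51, a difference of 0.15 with overlapping groups. Over 35 arrays these eya probes correlated at r = 0.107, while the Marf1 pair correlated at r = 0.904, so the fall at eya rests on a single probe.

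The gene side-III belongs to the sidestep family of immunoglobulin cell surface proteins, whose founding member guides motor axons. HP3 at side-III read 3.43, 0.66 and 0.59 after white knock-down and −0.21, 0.51 and −0.48 after HP1 knock-down, a difference of −1.62. The first control array alone stood high, and the other 2 control arrays lay just above the highest depleted array. Without white knock-down replicate 1 the difference at side-III was −0.61. The same control array was also the highest of its group at all 11 member probes with lower HP3. Leaving out 1 array at a time moved the median over the 10 genes between −1.78 and −1.41.

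HP3 in untreated cells was measured on arrays the choice did not use. The choice still favours genes with high HP3 under the control knock-down in the same cell line. The shares for untreated HP3 are therefore not independent of the choice. At CG2519 the untreated arrays read 2.93, 1.16, 2.60 and 1.97, a fitted mean of 2.17 ± 0.32 (SE, n = 4, limma adjusted p = 3.39e-05). The value of 1.16 is the doubted replicate 2, which was the lowest of the 4 arrays at all 9 probes of the 8 genes other than eya and side-III. Marf1 was above 0 at both probes, with 1.31 ± 0.22 at RE40762 (SE, n = 4, limma adjusted p = 0.000247) and 1.08 ± 0.30 at RE34808_ReAmp (SE, n = 4, limma adjusted p = 0.0249). CG9795 reached 1.01 ± 0.22 (SE, n = 4, limma adjusted p = 0.0045). These 4 of 12 member probes compare with 4.38% of all probes above 0 for HP3.

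Without the doubted arrays, 8 of the 12 member probes were above 0 for HP3 in untreated cells, against 4.9% of all probes. The additional probes were those of CG43367 at 1.15, Ice1 at 1.12, Elys at 1.01 and tefu at 1.01. Rcd7 stayed short of the threshold at 0.63 (limma adjusted p = 0.0738), with 0.60, 0.64 and 0.59 on the 3 remaining arrays. At eya probe LD16029 those arrays read 0.43, −0.16 and −0.06, and at side-III −0.25, −0.10 and −0.30, so neither gene carried HP3 in untreated cells beyond the typical probe. At all 9 probes of the other 8 genes the 3 untreated arrays lay above the HP1 knock-down arrays, and at 4 of the 9 they lay below every white knock-down array. These are descriptions, since the knock-down arrays chose the genes.

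HP1 itself was high at 8 of the 10 genes and not at eya or side-III. In untreated cells 9 of the 12 member probes were above 0 for HP1, against 8.48% of all probes. CG2519 read 4.02, 3.95, 3.50 and 2.84, a fitted 3.58 ± 0.32 (SE, n = 4, limma adjusted p = 5.14e-10), which ranked 3 of 9934 probes. At tefu the arrays read 3.81, 3.49, 2.46 and 2.06, giving 2.96 ± 0.24 (SE, n = 4, limma adjusted p = 1.44e-10). CG9795 followed with 3.43, 3.35, 2.56 and 2.41, giving 2.94 ± 0.22 (SE, n = 4, limma adjusted p = 8.55e-11). Replicate 4 was the lowest HP1 array at all 9 probes, and its spread over all probes was also the smallest of the HP1 arrays, with a median absolute deviation of 0.229 against 0.435 on replicate 2.

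The other HP1-bound members lay between 2.29 at Ice1 and 2.94 at Marf1 probe RE40762, and all ranked within the top 186 probes. Their arrays ranged more widely at Ice1, with 2.90, 3.27, 2.25 and 0.76, and at Elys, with 3.00, 3.70, 1.90 and 1.11. At eya the HP1 estimates were −0.15 and 0.21, and at side-III −0.07, none of which passed the test. Of the 44 probes lower for HP3 over the whole array, 36 were among the 842 HP1-bound probes and 8 were not. The leading probes of eya and side-III belong to those 8. Without the doubted arrays, 89 of 99 lower probes were HP1-bound. The median HP3 difference was −1.65 at the 9 HP1-bound member probes and −0.34 at the 833 other HP1-bound probes, a gap the choice of genes sets.

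**Figure D1:**
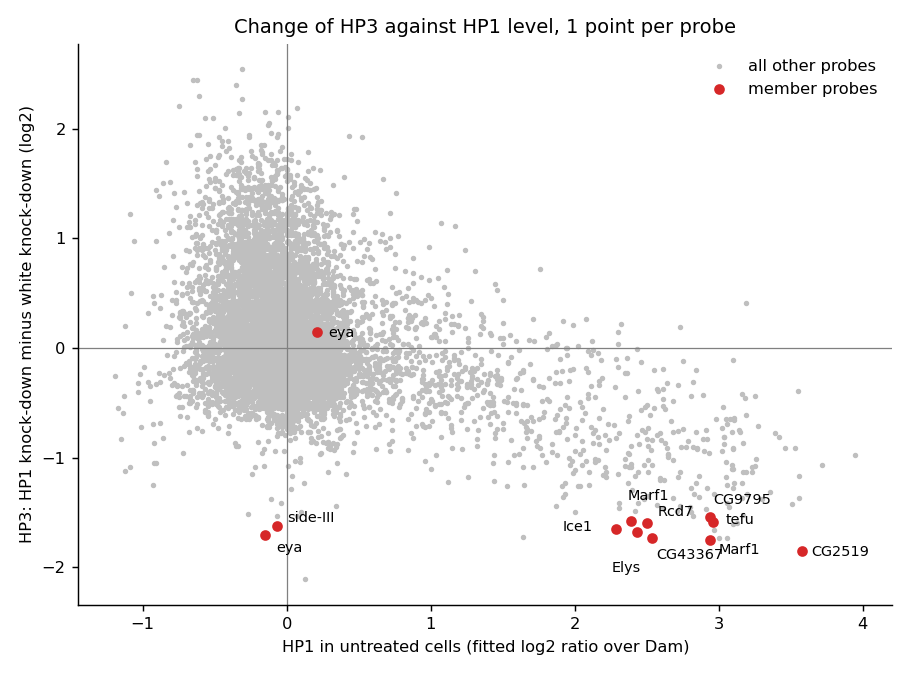
HP1 in untreated cells (fitted log2 ratio over Dam, horizontal axis) against the HP3 difference between HP1 and white knock-down (log2, vertical axis), with 1 point per probe and the 12 member probes in red. The 9 HP1-bound member probes lie between 2.29 and 3.58 for HP1, while eya and side-III lie near 0 on that axis. The lowest grey point is a SoxN probe at −2.11, which did not pass the test.

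Su(var)3-9, HP4, HP5 and HP6 were present at the same 8 genes. For each of these proteins the 9 probes of the 8 genes were above 0 by limma, against 15.8% of all probes for Su(var)3-9, 19.7% for HP4, 18.4% for HP5 and 7.05% for HP6. All of HP1, Su(var)3-9, HP4, HP5 and HP6 were above 0 at 402 probes, or 4.05% of the array, and the 9 member probes are among them. Adding HP3 left 210 probes, or 2.11% of the array, of which 4 are member probes. When the doubted arrays were left out, the 5 proteins shared 267 probes, or 2.69%, with 9 member probes, and with HP3 227 probes, or 2.29%, with 8 member probes.

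HP4 had the highest mean of the 11 groups at 7 of these 9 probes and HP1 at the other 2, with overlapping arrays. At CG2519 it read 4.43, 3.08, 4.41 and 4.57, a fitted 4.12 ± 0.32 (SE, n = 4, limma adjusted p = 3.21e-11). CG43367 read 2.39, 4.21, 2.97 and 2.81 for HP4, giving 3.09 ± 0.30 (SE, n = 4, limma adjusted p = 2.24e-09). The other 7 bound probes lay between 2.48 and 3.01 for HP4, so CG2519 stood above the rest of the members.

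As a median over the 8 genes, Su(var)3-9 was 2.37 ± 0.19 (SD, n = 3) and HP1 was 2.72 ± 0.73 (SD, n = 4). CG2519 read 2.99, 3.43 and 3.24, giving 3.22 ± 0.37 (SE, n = 3, limma adjusted p = 1.64e-07). CG43367 was next with 3.00, 3.11 and 2.72, giving 2.94 ± 0.35 (SE, n = 3, limma adjusted p = 2.93e-07). At the lower end Marf1 probe RE34808_ReAmp reached 1.84 ± 0.35 (SE, n = 3, limma adjusted p = 0.000187). HP5 ran from 2.00 at Elys to 3.29 at CG2519.

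HP6 in untreated cells was high at the same 8 genes and uneven between arrays. At tefu it read 2.18, 1.83 and 3.80, a fitted 2.66 ± 0.28 (SE, n = 3, limma adjusted p = 1.05e-07). The third value is the array with the HP4 plasmid's signal, which was the highest of the 3 at all 9 bound probes. Without the doubted arrays the estimate at tefu was 2.07 (limma adjusted p = 1.73e-05), and all 9 probes remained above 0, against 4.78% of all probes.

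Jra separated from the heterochromatin proteins at these genes. Its estimates were below 0 at all 9 probes of the 8 genes, of which tefu, at −0.85 ± 0.28 (SE, n = 3, limma adjusted p = 0.0332), and Marf1 probe RE40762, at −0.75 ± 0.26 (SE, n = 3, limma adjusted p = 0.0444), passed the test. These 2 of 12 member probes compare with 6.3% of all probes below 0 for Jra, and without the doubted arrays, whose removal narrows the shared estimate of spread, 5 of 12 passed, against 7.36%. At eya probe LD16029 Jra was above 0, with 1.12, 1.10 and 0.62 on the 3 arrays and a fitted 0.94 ± 0.31 (SE, n = 3, limma adjusted p = 0.0337), against 10.8% of all probes. No Jra call at a member probe passed when any 1 Jra array was left out. Over all probes 161 to 543 were then below 0 and 521 to 853 above, against 626 and 1077 with all arrays.

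**Figure D2:**
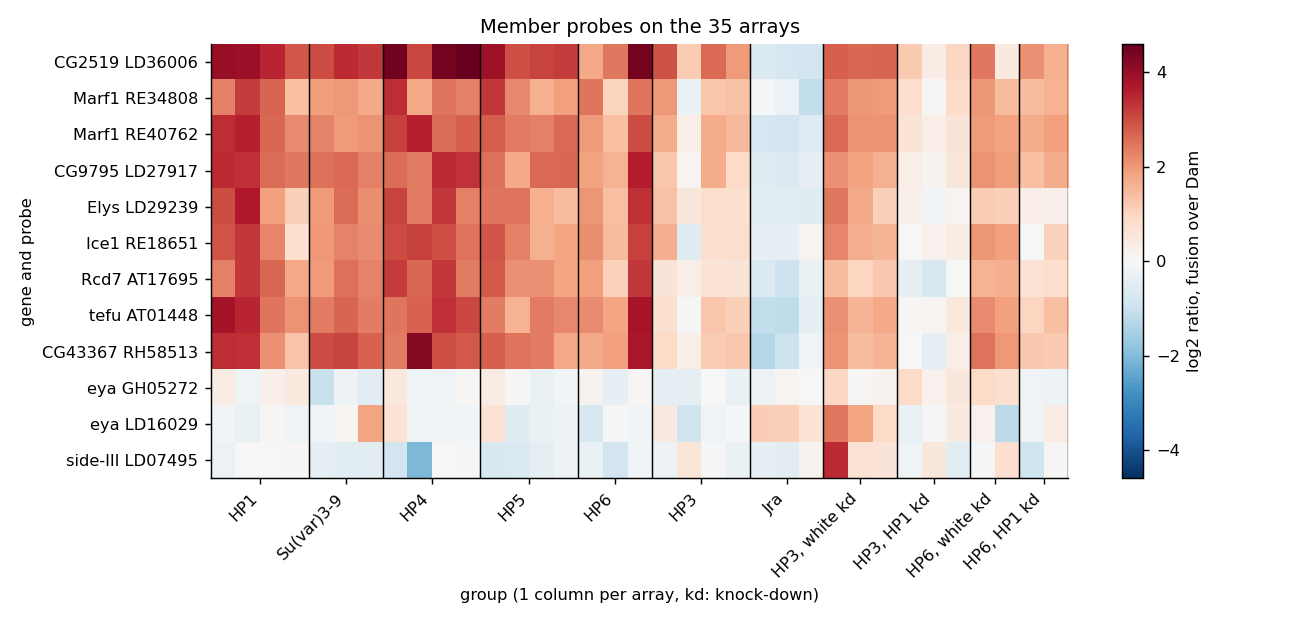
Values (log2 ratio over Dam, colour scale) of the 12 member probes, in rows, on the 35 arrays, in columns set out by the 11 groups. The 9 probes of the 8 HP1-bound genes are high for HP1, Su(var)3-9, HP4, HP5 and HP6 and low for Jra. Group means of eya and side-III lie between −0.75 and 0.60 for the untreated heterochromatin proteins, with single arrays from −2.07 to 1.83.

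Among the 11 groups, eya at LD16029 and side-III had their highest mean in the HP3 white knock-down group. The choice of genes used that group and favours a high mean there, so this is a description. At side-III its replicate 1, at 3.43, stood far above the rest of the group. At GH05272, eya was below 0 for Su(var)3-9, with −1.01, −0.25 and −0.48 and a fitted −0.60 ± 0.18 (SE, n = 3, limma adjusted p = 0.0115), against 17.4% of all probes below 0. Without Su(var)3-9 replicate 1 that value was −0.37 and the call was lost. At LD16029 the Su(var)3-9 arrays read −0.12, 0.10 and 1.83, so 1 array sets the positive mean there. For HP4, side-III read −0.84, −2.07, 0.00 and −0.10, a fitted −0.75 ± 0.30 (SE, n = 4, limma adjusted p = 0.0417), against 21.8% of all probes below 0. That call was lost without HP4 replicate 1 or replicate 2.

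The order of the 11 groups was alike at the 8 HP1-bound genes, with HP4 or HP1 first and Jra last. Over the 12 member probes, eya and side-III included, 107 of 120 adjacent pairs of groups had overlapping arrays. Without the doubted arrays 99 of 120 did. No such share was counted over all probes, so this describes the arrays and is no trait of the members. As medians over the 8 genes, single HP4 arrays lay between 2.67 and 3.26, HP1 arrays between 1.78 and 3.38, Su(var)3-9 arrays between 2.23 and 2.58 and HP5 arrays between 2.02 and 2.79. HP6 arrays lay between 1.53 and 3.48 and untreated HP3 arrays between 0.21 and 1.32, of which 3.48 and 0.21 are the doubted arrays. Without these the ranges were 1.53 to 1.96 for HP6 and 1.01 to 1.32 for untreated HP3. HP3 after white knock-down lay between 1.61 and 2.18 and after HP1 knock-down between 0.14 and 0.40, while Jra arrays lay between −0.74 and −0.40.

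HP6 after the same knock-downs gives a comparison that the choice of genes did not use. HP6 was lower after HP1 depletion at 10 of the 12 member probes, with a median of −0.81 over the 10 genes against 0.01 over all genes, but no member passed the test. By limma 0 of 12 member probes were called, with an adjusted p of 1 at each, and over the whole array 2 of 9934 probes were lower, or 0.0201%, those of CG1910 and nej, and 0 were higher. Neither of those calls was left without the doubted arrays. At an unadjusted p under 0.05 there were 2 member probes and 173 probes in all, or 1.74%. With 2 arrays per group the intervals at the members were wide, and a missed threshold does not show that HP6 was alike under both knock-downs.

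**Figure D3:**
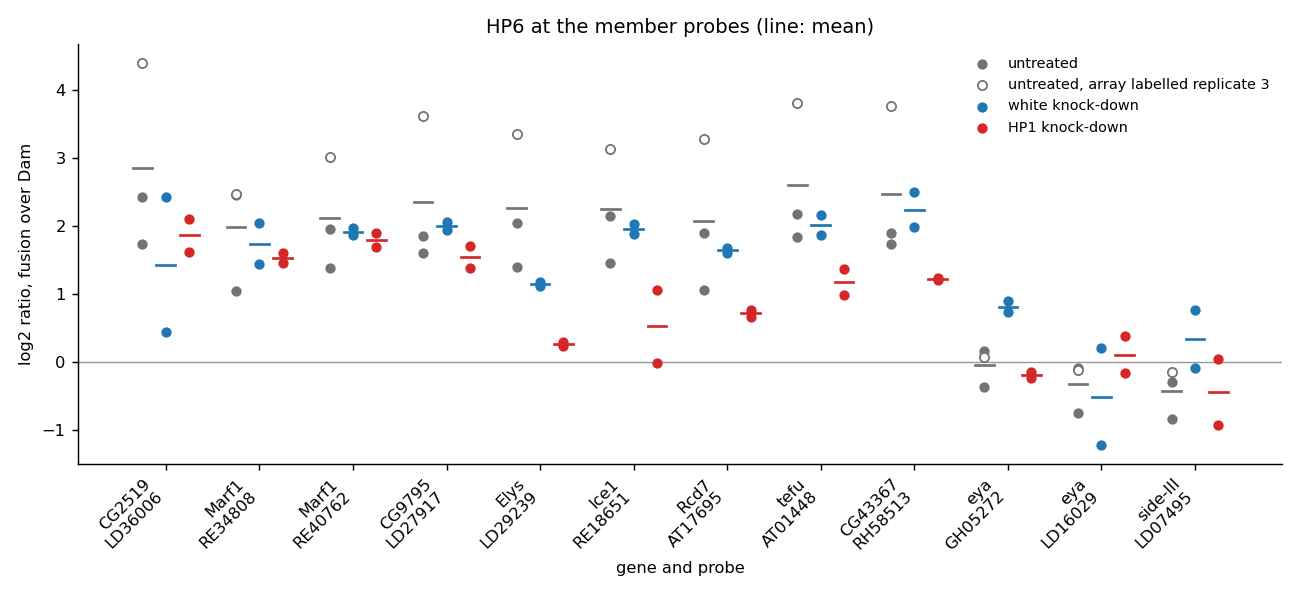
HP6 at each member probe (log2 ratio over Dam, vertical axis) on each untreated, white knock-down and HP1 knock-down array, with 1 point per array and a bar at the group mean. The open symbol is the doubted HP6 replicate 3, which the untreated mean includes. At 7 probes both HP1 knock-down arrays lie below both white knock-down arrays.

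Both HP1 knock-down arrays lay below both control arrays at 7 of the 12 member probes, against 18% of all probes, and above them at 0 of 12, against 22.2%. Ice1 had the lowest difference for HP6, reading 2.03 and 1.88 after white knock-down and −0.01 and 1.06 after HP1 knock-down. That difference was −1.43, with a 95% interval of −2.65 to −0.21 (limma unadjusted p = 0.0234, adjusted p = 1). At Ice1 the depleted arrays lay farther from each other than the control arrays did. At Elys HP6 read 1.18 and 1.11 against 0.30 and 0.24, a difference of −0.87 with an interval of −2.05 to 0.31. The arrays of each group were close together at Elys, and the interval comes from the spread shared by all groups.

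Similar differences were read at the division and repair genes. HP6 at Rcd7 read 1.60 and 1.68 against 0.66 and 0.77, a difference of −0.92 with an interval of −1.87 to 0.02. At tefu the values were 2.16 and 1.87 against 0.99 and 1.37, a difference of −0.83 with an interval of −1.81 to 0.15. CG43367 read 2.49 and 1.98 against 1.24 and 1.20, a difference of −1.01 with an interval of −2.24 to 0.21. All 3 of these genes had separated groups, with HP6 still above 0 on every depleted array.

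Differences nearer 0 were read at CG9795 and Marf1. CG9795 read 2.06 and 1.94 against 1.38 and 1.71, a difference of −0.46 with an interval of −1.37 to 0.46, and both depleted arrays lay below both control arrays. At Marf1 probe RE40762 the values were 1.97 and 1.86 against 1.69 and 1.90, a difference of −0.12 with an interval of −1.03 to 0.80. The other Marf1 probe gave −0.21, with an interval of −1.43 to 1.01, and both Marf1 probes had overlapping groups. HP3 at the same Marf1 probes differed by −1.75 and −1.58, although the HP3 and HP6 differences were not tested against each other because the HP3 values chose the genes.

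CG2519, with the largest HP3 difference, had a higher HP6 mean after HP1 knock-down. It read 2.42 and 0.44 after white knock-down and 2.10 and 1.62 after HP1 knock-down, a difference of 0.43 with an interval of −0.86 to 1.72. The sign rests on the second control array, without which the difference was −0.63. At eya the probes disagreed again. GH05272 read 0.89 and 0.73 against −0.15 and −0.24, a difference of −1.01 with an interval of −1.65 to −0.37 (limma unadjusted p = 0.00297, adjusted p = 1), and LD16029 read 0.20 and −1.21 against −0.16 and 0.38, a difference of 0.61. Thus the eya probe with lower HP6 is not the one with lower HP3. At side-III HP6 read −0.08 and 0.76 against −0.92 and 0.04, overlapping groups with a difference of −0.78 and an interval of −1.99 to 0.43.

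Set against 0, HP6 was found at 8 of 12 member probes after white knock-down, where 4.21% of all probes were above 0, and at 5 of 12 after HP1 knock-down, where the share was 4.63%. The 5 probes with HP6 after HP1 knock-down were those of CG2519 at 1.86, Marf1 at 1.79 and 1.53, CG9795 at 1.54 and tefu at 1.18. Ice1 at 0.52, Rcd7 at 0.72 and CG43367 at 1.22 did not pass there but did after white knock-down, with 1.95, 1.64 and 2.23, as did eya at GH05272 with 0.81. CG2519 reached 1.43 after white knock-down without passing (limma adjusted p = 0.0603). With the doubted arrays left out, CG2519 passed after white knock-down (limma adjusted p = 0.0059) and CG43367 passed after HP1 knock-down (limma adjusted p = 0.0344), giving 9 of 12, against 5.28% of all probes, and 6 of 12, against 6.29%. These calls rest on 2 arrays per group. With 1 of those arrays left out, the estimate at CG2519 after white knock-down was 0.37 to 2.48. That at CG43367 after HP1 knock-down was 1.20 to 1.24. A replicate block gave 3 of 12 after HP1 knock-down, with no share over all probes to set beside it. A call in one group and not in the other is no test of a difference, and the tested differences are those given above. The median HP6 difference was −0.83 at the 9 HP1-bound member probes and −0.10 at the 833 other HP1-bound probes, given as a description.

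The genes lie in different chromosomal settings. Counted in protein-coding genes from the centromere in RefSeq's gene order, Marf1 is number 15 of 2657 on 2L, CG9795 number 37 of 3398 on 3R and CG2519 number 160 on 3R. Elys is number 242 of 2197 on X, side-III number 229 on 3R and Rcd7 number 463 of 2739 on 3L. Farther from the centromere are tefu, number 1376 of 3398 on 3R, and eya, number 1843 of 2657 on 2L. So are CG43367, number 2228 of 2739 on 3L, and Ice1, number 2522 of 2851 on 2R. HP1 was high at tefu, CG43367 and Ice1, and so was not confined to the members near a centromere.

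Within 5 places on either side of the 10 genes, 60 of 100 neighbours were measured, by 67 probes, of which 26 were HP1-bound, against 8.48% of all probes. HP3 passed as lower at 1 of the 67 probes, against 0.443% of all probes, that of Ltn1 beside Rcd7, with −1.23 and an HP1 level of 2.37. It passed as higher at 3, against 7.43%, those of Rcd-1 near Elys, CG9550 near eya and CG31344 near tefu. Leaving out the doubted arrays, 27 of the 67 probes were HP1-bound. HP3 then passed as lower at 5, against 0.997% of all probes, and as higher at 4, against 8.73%. The added lower probes were those of Snm1 and Pi4KIIalpha near CG2519, at −0.90 and −1.07, disp near side-III, at −1.09, and Suv3 near CG9795, at −1.16, and each of them was HP1-bound. The median HP3 difference over the neighbour probes was 0.03.

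Marf1 and tefu had unlike neighbours. All 6 neighbour probes of Marf1 were HP1-bound, with a median HP1 of 2.61, yet their median HP3 difference was −0.20. None of the 8 neighbour probes of tefu was HP1-bound and their median HP1 was −0.19, against 2.96 at tefu. At Ice1, 5 of 8 neighbour probes were HP1-bound, among them Golgin245, with an HP3 difference of −1.35, and vir, with −1.01, neither of which passed the test with or without the doubted arrays. The only HP1-bound neighbour probe of side-III was that of disp, a gene for release of the Hedgehog signal, with an HP1 level of 2.38 and the HP3 difference of −1.09 that passed only without the doubted arrays. None of the 9 neighbour probes of eya was HP1-bound.

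**Figure D4:**
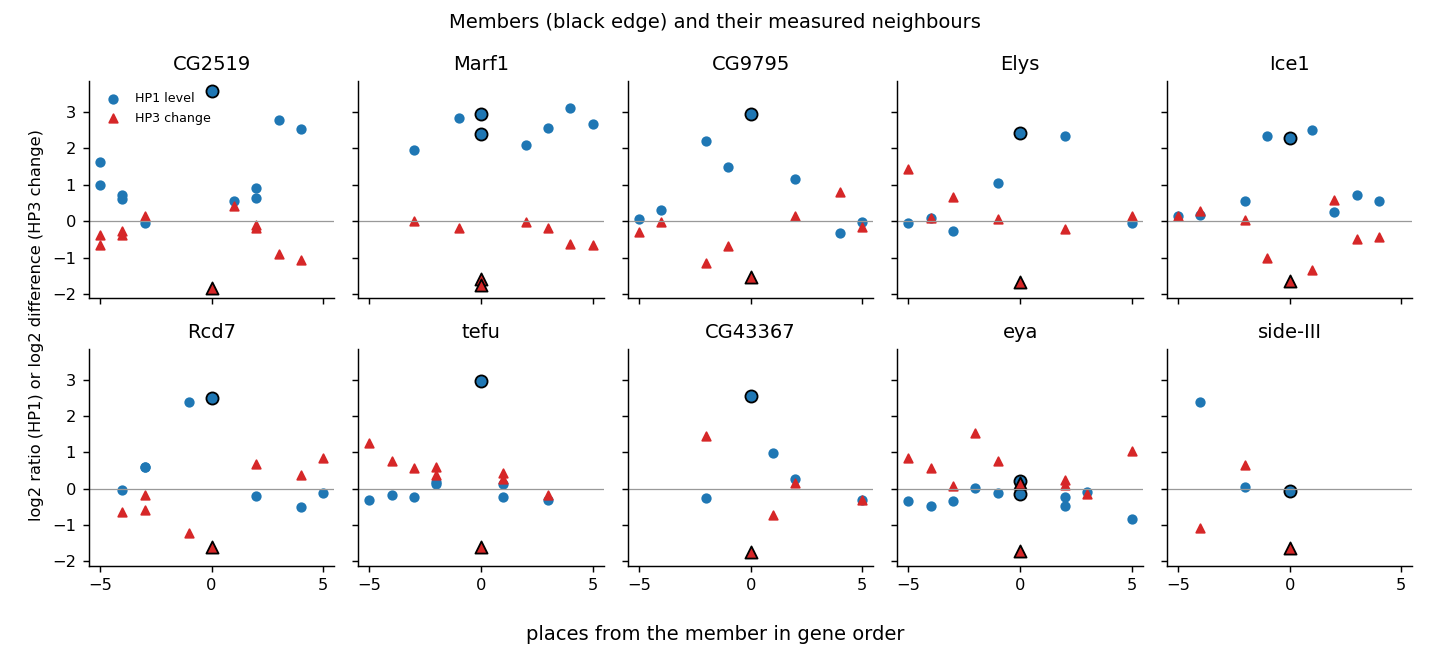
Neighbouring genes within 5 places of each member in protein-coding gene order, with the place relative to the member on the horizontal axis, HP1 in untreated cells (circles) and the HP3 difference between HP1 and white knock-down (triangles) on a shared vertical log2 axis, 1 of each per probe, and the member black-edged at place 0. The neighbours of Marf1 are high for HP1 with HP3 differences around a median of −0.20, and those of tefu lie around an HP1 of −0.19.

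Over the 9 groups that the choice did not use, the 8 HP1-bound genes followed one another closely. The Pearson correlation of each gene's group means with the mean of the other 9 genes ran from 0.916 at CG2519 to 0.991 at Rcd7, but was −0.506 at eya and −0.308 at side-III. It ran, when the doubted arrays were left out, from 0.913 to 0.988 at the 8 genes and was −0.543 and −0.234 at eya and side-III. These 9 points share Dam-only references of one kind and one array design, and the correlations are given as a description. Outside the 10 genes the most alike were cyst at 0.996, CG3700 at 0.995, CG4841 at 0.995, mu2 at 0.994 and poe at 0.994. Of these 5, 4 remained when the doubted arrays were left out, and PAN2 at 0.989 took the place of CG3700. Their HP3 differences were −1.50, −0.30, −0.79, −1.60 and −1.25 in that order, so a like profile went with anything from a small to a large HP3 difference.

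Functional relatives of the members were taken from 7 lists compiled for each gene's process. Over their 72 probes of other genes, HP3 passed as lower after HP1 knock-down at 0, against 0.443% of all probes, and as higher at 10, or 13.9%, against 7.43%. A count of 0 is near the share over the whole array for lists of this size. HP1-bound were 10 of the 72 probes, or 13.9%, against 8.48% of all probes. HP6 passed in neither direction between the knock-downs at any of the 72 probes.

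Of 21 probes for 20 other nuclear pore genes, 4 were HP1-bound and HP3 passed as higher at 3, or at 4 without the doubted arrays. Nup205, a scaffold nucleoporin, had the highest untreated HP3 of that list at 0.85, or 1.19 without the doubted arrays. Nup98-96 had the lowest at −0.60, or −0.84 without them.

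Of 11 other DNA damage genes, 1 was HP1-bound and HP3 passed as higher at 1. The HP1-bound gene is mu2, which acts at broken ends and telomeres, with an HP1 level of 3.13 and an HP3 difference of −1.60. That difference did not pass with all arrays but did without the doubted arrays (limma adjusted p = 0.000221). Rif1, a regulator of replication timing, had the highest untreated HP3 of the list at 1.21, a value that was 0.40 without the doubted arrays, where mu2 was highest at 1.63. Claspin was lowest at −0.54. Without the doubted arrays it read −0.51, and Brca2 was lowest at −0.59.

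Among 8 other centrosome genes, 1 was HP1-bound and HP3 passed as higher at 4, with untreated HP3 between −0.66 at Rcd1 and 0.27 at ana2, or −0.65 and 0.38 without the doubted arrays. Among 14 probes for 11 other mRNA decay genes, 2 were HP1-bound and HP3 passed as higher at 2, with untreated HP3 between −0.58 at Patr-1 and 0.30 at Not3, or −0.71 and 0.45. None of 9 probes for 7 other elongation genes was HP1-bound. Their untreated HP3 lay between −0.72 at Ice2, the partner of Ice1, and 0.70 at Su(Tpl), which were −0.84 and −0.11 without the doubted arrays. With those arrays left out, lilli was the highest at −0.05.

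Of 7 probes for 6 other retinal determination genes, 2 were HP1-bound, both of toy, a Pax6 gene. Its mean untreated HP3 of 0.98, or 1.38 without the doubted arrays, was the highest of the list, with dan the lowest at −0.03, or −0.24. The toy mean joins unlike probes, 1.99 at GH26083, which passed for HP3, and −0.03 at GH14454, which did not. Neither of the 2 other measured sidestep genes, side-VI and side-VII, was HP1-bound, with untreated HP3 of −0.39 and −0.15, or −0.43 and −0.13.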

How the data were processed

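The deposited table holds, per the labels and the study's design text, ratios of methylated DNA from Dam-fusion cells over Dam-only cells on 2-colour arrays. The authors deposited 1 log ratio per probe and array, taken here as log2 and already normalised, since column medians lay between −0.000168 and 0.000269. No label names the image analysis, the normalisation or the genome build. Of 9993 probes, 8682 had 1 gene in the platform annotation, 298 several and 1013 none, and 0.124% of values were missing. Depth does not apply to arrays, and the number of arrays limits precision.

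Array medians were subtracted. A linear model with the 11 groups and the dye orientation was fitted to all 35 arrays with limma 3.58.1 in R 4.3.3, for the 9934 probes with at least 2 values in every group. Tests were two-sided, adjusted by Benjamini-Hochberg over all fitted probes at a threshold of 0.05. The procedure was tested on simulated arrays with known drops of HP6 between the knock-downs. It recovered 86 of 100 probes with a drop of 2 but 14 of 100 with a drop of 1, and called 6 unchanged probes. Dye orientations were mixed within every group. Where a member gene had several probes, each was shown. Gene medians, and the highest and lowest gene of each list, used the mean of a gene's probes.

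The members and lists were chosen with earlier results of these data known. Named genes are the members, the 5 genes most like them over 9 groups, the 3 genes next in HP3 difference, neighbours within 5 places and, in each list, the genes with the highest and lowest untreated HP3. Single neighbours and mu2 in its list were picked after their values were seen. RefSeq's table gave gene names and order only. The numbers of same-numbered knock-down arrays were not taken as pairs, as explained in the closing section. Alternatives changed the centring, scaling, dye term, arrays fitted, missing-value filter and replicate block, and left out single arrays.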

Additional observations from a re-analysis of the deposited data

Results flagged for a closer look

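The member probes gave 48 sets of 4 arrays. In 5 of them 1 array stood far from the others relative to the range of its group. Chance alone gives about 1 in 20 for independent sets, but these sets share arrays. Such sets were not counted over all probes, so the 5 are no trait of the members. For CG2519, HP4 replicate 2 read 3.08 while the other HP4 arrays read 4.41 to 4.57. At eya probe LD16029, HP4 replicate 1 read 0.67 while the others read −0.19 to −0.14. For CG9795, HP5 replicate 2 read 1.73 while the others read 2.54 to 2.64. The remaining pair came from the doubted untreated HP3 replicate 2. That array read 0.31 at Marf1 probe RE40762, where the others read 1.49 to 1.72, and 0.32 at Rcd7, where the others read 0.59 to 0.64.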

How the results depend on the processing

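The 9 member probes above 0 for HP1, Su(var)3-9, HP4, HP5 and HP6 were 9 under every alternative run, and the median HP3 difference stayed negative. Member probes above 0 for untreated HP3, 4 as reported, were 8 with arrays scaled to the same spread, 0 with only the HP3 arrays in the model, 8 without the doubted arrays and 2 to 7 with 1 array left out. Over all probes, 435 as reported, the counts in that order were 1103, 0, 487 and 257 to 422. Under scaling to the same spread, 0 were below 0 for HP4 (1 as reported) and 0 for Jra (2 as reported), and the median HP6 difference was −1.09. With only the arrays compared, 0 were below 0 for HP4, 1 for HP5 and 8 for Jra. Over all probes 265 were then below 0 for HP4 and 2145 for Jra, against 2165 and 626 as reported. That alternative could not be run for HP6 after either knock-down against 0, since no residual degrees of freedom remained. Without the doubted arrays 5 member probes were below 0 for Jra, against 7.36% of all probes. Leaving out 1 array gave 0 to 1 below 0 for Su(var)3-9, 0 to 1 for HP4 and 0 for Jra in each direction. Over all probes it gave 975 to 1200 below 0 for Su(var)3-9 and 1653 to 2157 for HP4. For Jra it gave 161 to 543 below 0 and 521 to 853 above. HP6 after either knock-down would keep a lone array in its group, so no count is given there. The causes were not tested.

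Same-numbered arrays of the HP3 knock-downs deviated together at correlations of 0.102, 0.0729 and 0.242. With 2 arrays per group, those of HP6 give only a single value, 0.16. Same-numbered knock-down arrays also had the same dye orientation, which was not removed here, so these correlations cannot decide pairing. The numbers were not taken as pairs. The array with its own number was the closest for replicates 1 and 3 of HP3 and not for replicate 2. With the replicate block, 3 member probes instead of 5 were above 0 for HP6 after HP1 knock-down, with no share over all probes beside them. Elys turned to −0.15 there, and the median HP6 difference stayed at −0.81.

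Signs turned only where values lay near 0 or rested on 1 array. Without the doubted arrays, HP3 at eya LD16029 was 0.09, and under scaling HP4 there was −0.01. With 1 array left out, eya LD16029 ranged from −0.10 to 0.96 for Su(var)3-9, −0.38 to 0.08 for HP3, −0.18 to 0.12 for HP4 and −0.37 to 0.05 for HP5. The other eya probe ranged from −0.08 to 0.16 for HP4, −0.13 to 0.08 for HP5, −0.18 to 0.12 for HP6 and −0.14 to 0.05 for Jra, and its HP3 difference from −0.01 to 0.41. Untreated HP3 at side-III ranged from −0.29 to 0.13. For HP6, eya LD16029 ranged over −1.24 to 0.24 after white knock-down and −0.19 to 0.41 after HP1 knock-down, Ice1 over −0.04 to 1.09 after HP1 knock-down, and the knock-down difference over −0.13 to 1.35 at eya LD16029 and −0.63 to 1.49 at CG2519.

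Calls over all probes moved more. HP3 passed as lower at 3 probes without HP1 knock-down replicate 2 and at 734 with only the arrays compared, against 44 as reported, and as higher at 180 and 1716, against 738. Without the doubted arrays it passed as lower at 99, and the HP6 calls at CG1910 and nej were lost. Untreated HP3 was above 0 at 0 to 1103 probes and HP6 passed as lower at 0 to 8, each range over all alternatives.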
